A study of Mus musculus with 9 samples.

Results

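Cells given oxyhemoglobin were compared with untreated cells of the same line, across all genes. The comparison takes 6 of the 9 RNA sequencing libraries of the series, the 3 labelled Control (no intervention) and the 3 labelled Hb (oxyhemoglobin), and they were chosen by those treatment labels alone. The other 3 libraries, from cells given oxyhemoglobin together with NTR1, entered the fit to help estimate the spread between replicates. They also took part in the filter that chose the genes tested and in the scaling of libraries. All groups are wild type cells grown in DMEM with 10% serum. The labels state neither the dose of oxyhemoglobin nor the time of exposure. Titles call the cells HT22, the cell line field calls them mouse hippocampal neuronal, and the cell type field says HT-4.

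Oxyhemoglobin is the oxygenated form of the red cell pigment, and it reaches brain cells when blood escapes from vessels. A cell that takes up its heme opens the ring with heme oxygenase, which frees iron, and the iron is then stored in ferritin, while free iron and heme favour oxidation of lipids, proteins and DNA. The transcription factor NRF2 and the heme-binding repressor BACH1 control many of the genes that answer such oxidants, among them genes of glutathione synthesis and conjugation.

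The libraries were poly(A) selected and held 13415648 to 16893746 counts after repeated entries were removed. Where a gene has 0 counts, up to 3 cannot be told from none, which is 0.178 to 0.224 CPM (counts scaled to the library size, here corrected by TMM factors), and this limit covers counting error only. Hb replicate 2 stood apart from the rest of its group. Its counts differed from those of Hb replicates 1 and 3 with chi-square values, divided by their degrees of freedom, of 13.2 and 11, against 11.1 to 14.3 for its distance from the control libraries and 2.53 to 5.19 for the other pairs of libraries within a group. On the second principal component of the 6 libraries, with 23% of the variance, it lay at -30.2, and the other 5 lay between -4.43 and 13.9. Counts of called genes in the gene lists are therefore also given without it.

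The labelled neuronal identity had little support among neuronal markers. Of 32 such genes, 25 were under 1 CPM in the control mean and 12 had no count in any of the 6 libraries, including Map2, Nefl, Snap25, Elavl4, Gad1, Gad2 and Grin1. The 32 together summed to 236 to 246 CPM in control and 233 to 250 CPM in Hb, carried by the few that were expressed. Fibroblast or mesenchymal markers summed to 19000 to 20400 CPM in the control libraries and 15800 to 18000 CPM in the Hb libraries, so these ranges did not overlap. Much of this sum lay in the collagen genes Col1a2 and Col1a1, which are described again below. Their control and Hb means were 9098 and 7381.5 CPM for Col1a2, and 3624 and 2597.9 CPM for Col1a1. Of the 14 markers tested, 4 were called lower, 0 higher and 10 not called, and 3 had a positive log2 fold change. Astrocyte markers summed to 386 to 421 CPM in control and 325 to 340 CPM in Hb. The glutamate transporter Slc1a3 is among them, at 211 CPM in the control mean and 123 CPM in the Hb mean, and Aqp4 was at 0. Of the 5 astrocyte markers tested, 4 had a positive log2 fold change, so the lower sum rested on Slc1a3. Erythroid markers stayed at 1.07 to 1.55 CPM in control and 1.57 to 1.83 CPM in Hb, and the adult globin genes Hba-a2, Hbb-bs and Hbb-bt had no counts in any of the 6 libraries. Summed markers of muscle ran from 23.5 to 33.9 CPM in control and 14.8 to 18.7 CPM in Hb, those of microglia from 27 to 34 CPM and 23.4 to 26.5 CPM, and those of epithelia from 13.6 to 16.5 CPM and 20.7 to 24.6 CPM. In these lists 7 of 9, 9 of 12 and 7 of 8 markers were under 1 CPM in the control mean, so each sum rested largely on 1 gene. Control and Hb means were 20.5 and 9.25 CPM for Acta2, 20.6 and 13.3 CPM for Tmem119, and 15.1 and 20.8 CPM for Cdh1. The microglial marker Cd68 went the other way from Tmem119, from 3.35 to 5.24 CPM. Oligodendrocyte and endothelial markers stayed under 5 CPM in each library. The part of other cell types in the results was not tested. In bulk RNA a smaller share of 1 kind of cell and less RNA per cell cannot be told apart.

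Oxyhemoglobin was accompanied by many small shifts and few large ones. Of 13810 genes tested, 504 (3.65%) passed an adjusted p of 0.05 in the quasi-likelihood F test of edgeR, adjusted by Benjamini-Hochberg. Higher in Hb were 259 (1.88%) and lower 245 (1.77%). Every count of called list members below is to be read beside these shares. The median called rise was 1.32-fold and the median called fall 1.37-fold, and only 51 genes (0.369%) were both called and changed at least 2-fold, 29 of them upward and 22 downward. When libraries were scaled by their totals alone, in place of TMM, the split became 377 higher and 196 lower. Without Hb replicate 2, 1125 of 14238 genes were called (7.90%), 533 higher (3.74%) and 592 lower (4.16%), and 474 of the 504 genes were among them. Libraries of the groups did not overlap, in the direction of a rise, for 9.51% of tested genes and, in that of a fall, for 10.0%, so a clear gap alone was common. Among called genes, 257 of the 259 higher and 244 of the 245 lower had no overlap, so a gap adds little to a call. Nothing in the labels says that the libraries come from separate cultures. The p-values therefore reflect only how these samples vary among themselves, which may be technical. In the text below a log2 fold change is given as estimate ± SE with n = 3 libraries a group, and adjusted p-values are from that edgeR test.

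**Figure D1:**
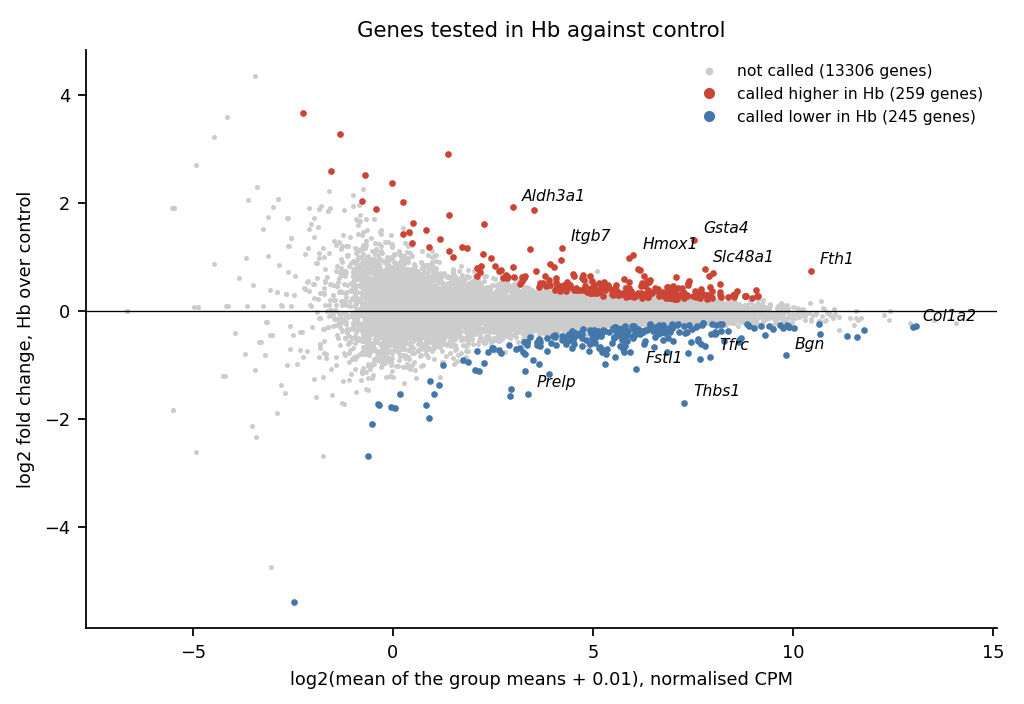
Log2 fold change of Hb over control (vertical axis) against the mean expression of each of the 13810 genes tested (horizontal axis, log2 of normalised CPM plus 0.01). Red points are the 259 genes called higher and blue points the 245 called lower. Most called genes lie within 1 log2 unit of 0, and the labelled genes are described in the text.

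Genes that take in and break down heme and genes that store and import iron were among those that changed. Hmox1 encodes the inducible heme oxygenase (chr8:75093621-75100589, plus strand, GRCm38). It was at 43.8, 42.4 and 40.9 CPM in the control libraries and 86.9, 94.7 and 78.9 CPM in the Hb libraries. The groups did not overlap, and the log2 fold change was 1.03 ± 0.08 (adjusted p = 1.31e-08). Slc48a1, which carries heme out of the endolysosome into the cytosol, lies at chr15:97778520-97792692 on the plus strand. It measured 162, 160 and 165 CPM in control and 290, 294 and 257 CPM in Hb, again with all Hb libraries above all control libraries. Its log2 fold change was 0.78 ± 0.07 (adjusted p = 3.73e-08). Its exons overlap those of Hdac7 on the opposite strand, and no source used here gives the strand setting of the counting, so reads of the pair may be mixed. The same doubt holds for the other named genes with exons that overlap a gene on the opposite strand in GENCODE M21, which are Abca8b, Aldoa, Atg9b, Atp5l, Bcl2, Ccnd1, Cdkn1a, Col9a3, Crim1, Ddit3, Flvcr1, Ftl1, G6pdx, Gclm, Gpc1, Hk1, Hspa12a, Kif18a, Lox, Loxl3, Mt2, mt-Nd5, Pdgfra, Prelp, Rb1cc1, Selenop, Slc25a37, Sqstm1, Tenm4, Thbs1, Timp3 and Txnip. An overlap with a gene on their own strand was found for Bax, Col7a1, Ftl1, Gclm, Ifi203, Mafg, mt-Nd1, Neat1, Nrp1, Pdgfra and Slc39a7.

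Heme efflux genes split. Flvcr1, a heme exporter, rose by a log2 fold change of 0.34 ± 0.09 (adjusted p = 0.0249), a call that ended without control replicate 1 (0.103), control replicate 2 (0.135), control replicate 3 (0.0504) or Hb replicate 3 (0.0681). Abcg2, a transporter that also exports heme and porphyrins, fell from 53.2, 56.8 and 57.1 CPM to 38.4, 40.6 and 43.5 CPM (-0.45 ± 0.08, adjusted p = 0.000928). Of the 11 tested genes of heme breakdown and transport, 3 rose (Hmox1, Slc48a1 and Flvcr1) and 1 fell (Abcg2). Their median log2 fold change was 0.07, beside 0 for all genes tested. Without Hb replicate 2 the counts were 4 and 1.

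Ferritin and the transferrin receptor moved in opposite directions. Fth1, the ferritin heavy chain with ferroxidase activity (chr19:9980598-9985098, plus strand), was at 1027, 1002 and 1119 CPM in control and 1694, 1999 and 1564 CPM in Hb. Each Hb library exceeded each control library, with Hb replicate 2 highest, and the log2 fold change was 0.74 ± 0.08 (adjusted p = 1.53e-06). Tfrc, the receptor that imports transferrin-bound iron (chr16:32608920-32632794, plus strand), fell from 304, 317 and 316 CPM to 166, 182 and 177 CPM. The Hb libraries were all far below the control libraries, at a log2 fold change of -0.84 ± 0.06 (adjusted p = 8.86e-09). These are also the textbook carriers of the iron-responsive element, a short RNA hairpin bound by iron regulatory proteins when iron is scarce. In a ferritin 5′ untranslated region the bound protein blocks translation, and in the Tfrc 3′ untranslated region it protects the messenger from decay. The elements are shown because they belong to the iron genes that changed. They were read from GENCODE M21 transcripts on GRCm38, 5′ to 3′ on the transcript strand, with the CAGTGN loop in capitals:
Fth1 5′ element, chr19:9982732-9982760, plus strand: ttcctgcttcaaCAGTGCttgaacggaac
Ftl1 5′ element, chr7:45459779-45459807, minus strand: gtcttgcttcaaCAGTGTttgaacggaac
Tfrc 3′ element A, chr16:32631219-32631247, plus strand: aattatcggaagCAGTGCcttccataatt
Tfrc 3′ element B, chr16:32631598-32631626, plus strand: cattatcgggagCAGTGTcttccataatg
Tfrc 3′ element C, chr16:32631663-32631691, plus strand: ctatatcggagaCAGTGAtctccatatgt
Tfrc 3′ element D, chr16:32631710-32631738, plus strand: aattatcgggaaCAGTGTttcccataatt

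The search asked for a C, 5 bases, the loop and 5 bases that pair with the first 5, with G:U pairs allowed. Of 21877 protein-coding genes, 31 (0.142%) held such a match in a 5′ untranslated region and 129 (0.59%) in a 3′ untranslated region. Among the 26 tested genes of the first kind, Fth1 and Ftl1 were called higher and Nfib, a transcription factor, lower. Among the 85 tested genes of the second kind, 0 were called higher and only Tfrc lower. A match of letters is a description, not a binding site, and protein levels were not measured.

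The rest of the iron list moved less. Ftl1, the ferritin light chain (chr7:45457944-45459884, minus strand), was listed at only 7.29, 6.58 and 5.08 CPM in control and 8.90, 10.8 and 10.0 CPM in Hb. Its log2 fold change of 0.64 ± 0.15 passed the test (adjusted p = 0.0152) but not without control replicate 3 (0.123), and both ferritin genes have near-identical copies in the genome, so their counts are uncertain. Of 20 tested genes of iron uptake, storage and export, 4 rose (Fth1, Ftl1, the mitochondrial iron importer Slc25a37 and the endosomal ferrireductase Steap3) and 1 fell (Tfrc), with a median log2 fold change of 0.05. The number that rose was 2 without control replicate 3, the number that fell was 2 without Hb replicate 3, and both were as in all libraries without Hb replicate 2. The median without Hb replicate 2 was 0.02. Slc40a1, the only known cellular iron exporter, was near 0, with counts in 1 control library (0.181 CPM) and 1 Hb library (0.0742 CPM). It is among the tested genes of this list, but it was not tested in the fit of the 6 libraries alone.

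**Figure D2:**
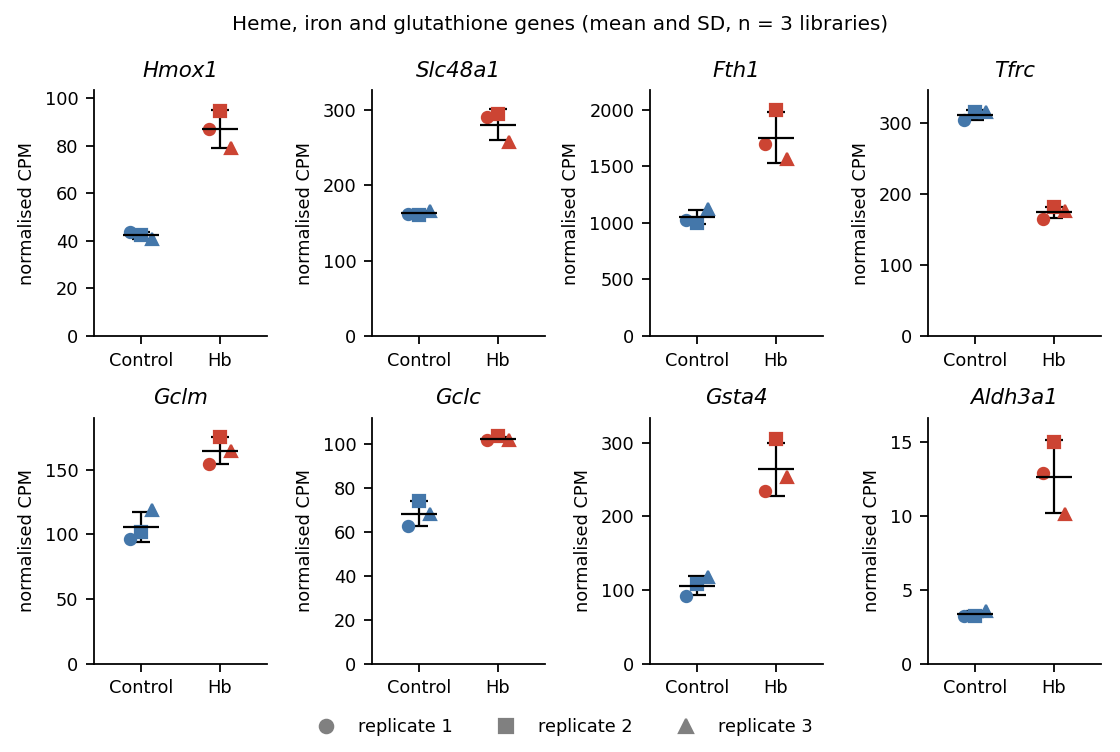
Normalised CPM (vertical axes, from 0) of 8 heme, iron and glutathione genes in the 3 control (blue) and 3 Hb (red) libraries. Symbols mark the replicate number, horizontal bars the mean and the whiskers the SD over 3 libraries. In each panel the Hb libraries lie wholly above the control libraries, except Tfrc, where they lie below.

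Some of the enzymes that make and use glutathione rose in Hb, and most of those tested were not called. Glutathione is the main thiol of the cell, and glutamate-cysteine ligase, made of a catalytic subunit (Gclc) and a modifier subunit (Gclm), sets the pace of its synthesis. Gclm (chr3:122245557-122270732, plus strand) rose from 96.7, 102 and 119 CPM to 155, 176 and 165 CPM (0.64 ± 0.07, adjusted p = 4.18e-06). Gclc rose from 62.5, 74.3 and 68.4 CPM to 102, 104 and 102 CPM (0.58 ± 0.07, adjusted p = 5.62e-06). For both subunits the groups were clear of each other, and the 3 Hb libraries of Gclc nearly coincided. Pgd, an NADPH-yielding enzyme of the pentose phosphate pathway, rose by 0.44 ± 0.07 (adjusted p = 0.000202). With the pathway's first enzyme G6pdx, 4 of 17 tested genes of glutathione synthesis and NADPH supply rose and 0 fell, against 1.88% of all genes higher. Their median was 0.13. The number that rose was 3 without control replicate 1 or control replicate 3, where G6pdx was not called (adjusted p = 0.12 and 0.0921), and 5 without Hb replicate 2. Slc7a11, the cystine importer that feeds the pathway, did not pass the test (0.12 ± 0.10, adjusted p = 0.611). Its libraries overlapped, at 32.8, 35.6 and 33.9 CPM in control and 37.1, 31.6 and 42.3 CPM in Hb.

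Gsta4, the glutathione transferase that conjugates the lipid peroxidation product 4-hydroxynonenal, had the steepest called rise in this group. It lies at chr9:78182774-78209349 on the plus strand and was at 91.9, 108 and 118 CPM in control and 234, 304 and 253 CPM in Hb. The lowest Hb library was well above the highest control library (1.32 ± 0.09, adjusted p = 4.77e-09). Mgst2, a membrane-bound transferase, rose by 0.74 ± 0.13 (adjusted p = 0.00148) and Gstm1 by 0.43 ± 0.07 (adjusted p = 0.000441). Among 18 tested transferases 5 rose, the others being Mgst1 and Gstp1, and 0 fell, with a median of 0.12. The number that rose was 3 without control replicate 1, and without Hb replicate 2 it was 5 with 1 lower and a median of 0.06. Gstm1 and Gstp1 belong to families of near-identical copies and are uncertain for that reason.

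Aldh3a1, an aldehyde dehydrogenase that clears aldehydes from oxidised lipids, had the largest called fold change of the redox lists. It lies at chr11:61207537-61218421 on the plus strand. Its level went from 3.25, 3.19 and 3.58 CPM in control to 12.9, 15 and 10.1 CPM in Hb, with no overlap (1.92 ± 0.18, adjusted p = 2.23e-07). It was the only one of 13 tested aldehyde dehydrogenases to be called, with or without Hb replicate 2. Esd, whose product hydrolyses S-formylglutathione, rose by 0.70 ± 0.08 (adjusted p = 2.19e-06), and the aldose reductase Akr1b3 by 0.42 ± 0.08 (adjusted p = 0.00197). Nqo1, the quinone reductase often read as an NRF2 target, measured 58.7, 58.8 and 82.7 CPM in control and 94.1, 92.3 and 89.3 CPM in Hb. Control replicate 3 was close to the Hb libraries, and the rise of 0.46 ± 0.09 (adjusted p = 0.00452) was not called without control replicate 2 (0.0518). Of 28 tested carbonyl, quinone and epoxide enzymes, 4 rose and 3 fell, and without Hb replicate 2 both numbers were 4. The number that rose was 2 without control replicate 1 or control replicate 2, and the number that fell was 0, 1 and 0 without control replicates 1, 2 and 3.

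In the thioredoxin system only a pair of recycling enzymes rose. Txnrd1, which reduces cytosolic thioredoxin with NADPH, went from 258, 260 and 262 CPM to 328, 320 and 310 CPM (0.30 ± 0.06, adjusted p = 0.00459). Srxn1, which repairs overoxidised peroxiredoxins, went from 97.6, 93.7 and 99.6 CPM to 120, 123 and 121 CPM (0.32 ± 0.06, adjusted p = 0.0027). Both shifts were small, and no Hb library reached down to a control library. Of 32 tested genes of this system 2 rose and 3 fell (the thioredoxin inhibitor Txnip, the glutaredoxin Glrx and the selenium carrier Selenop), with a median of -0.01. The number that fell was 1 without control replicate 1, 0 without control replicate 3 or Hb replicate 1, and 8 without Hb replicate 2. The median without Hb replicate 2 was -0.08.

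NRF2 binds the antioxidant response element, whose core was searched as TGACNNNGC on both strands in 300 bases around each start site (250 before, 50 after). Promoters came from RefSeq on GRCm38.p6, a table that matched 9549 of the tested genes. The core was present for 8 of 18 (44.4%) of the genes called higher in the redox, heme and iron lists that had a promoter in the table. Hmox1, Slc48a1, Gclc, Gsta4, Aldh3a1, Akr1b3 and Slc25a37 were called higher but had no promoter there, so this share leaves them out. Among 104 uncalled genes of the same lists it was present for 19.2%, among all tested genes for 17.1% and among all 27025 genes of the table for 14%. A gene counts here if any of its listed start sites has the core, and Pgd, Mgst1 and Txnrd1 have others without it. No test of this difference was made. For all genes called higher the share was 21.2%, and for all called lower 13.3%. None of the 8 matches overlapped the AP-1 motif TGANTCA. A pair of these promoters is printed, for a glutathione gene and a thioredoxin gene that rose (for Txnrd1 the 1 start site of 3 that has the core), as the 250 bases before the start site, 5′ to 3′ on the gene's strand. Capitals mark the core, which in both lies on the other strand and so reads as its reverse complement:
Gclm, chr3:122245307-122245556: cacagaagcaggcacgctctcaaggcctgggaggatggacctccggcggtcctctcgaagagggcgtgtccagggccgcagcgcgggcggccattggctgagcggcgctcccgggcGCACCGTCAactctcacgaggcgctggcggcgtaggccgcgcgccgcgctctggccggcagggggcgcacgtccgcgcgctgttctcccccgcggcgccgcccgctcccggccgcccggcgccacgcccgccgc
Txnrd1, chr10:82858956-82859205: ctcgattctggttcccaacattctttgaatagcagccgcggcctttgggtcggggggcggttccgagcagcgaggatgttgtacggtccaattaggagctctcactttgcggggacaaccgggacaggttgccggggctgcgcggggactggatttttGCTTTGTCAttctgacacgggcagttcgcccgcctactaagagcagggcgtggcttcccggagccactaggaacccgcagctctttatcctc

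The tumour suppressor p53 induces genes of growth arrest and of apoptosis when DNA is damaged, and some of its targets rose. Cdkn1a, the p21 inhibitor of cyclin-dependent kinases, measured 74.4, 81.2 and 85.1 CPM in control and 105, 115 and 105 CPM in Hb (0.43 ± 0.08, adjusted p = 0.000894). Eda2r, a p53-induced receptor, rose by 0.49 ± 0.08 (adjusted p = 0.000468) and Zmat3, a p53-induced RNA-binding protein, by 0.40 ± 0.07 (adjusted p = 0.00102). Btg2, an antiproliferative p53 target, fell from 20.1, 21.0 and 26.1 CPM to 15, 15.4 and 15.6 CPM (-0.54 ± 0.10, adjusted p = 0.00262), so the list did not move as a block. Of 30 tested p53 targets 8 rose and 1 fell, with a median of 0.19. The number that rose was 4 without control replicate 1, 5 without control replicate 2 and 9 without Hb replicate 2, where 2 fell.

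In the BCL2 family, which governs the mitochondrial route of apoptosis, only Bax was called among 18 tested genes. Bax measured 30.5, 26.0 and 31.2 CPM in control and 44.1, 47.4 and 33.6 CPM in Hb. Hb replicate 3 lay near the control libraries, and the rise of 0.51 ± 0.11 (adjusted p = 0.00844) was not called without control replicate 2 (0.0833). Bcl2 itself did not pass the test, at 7.29, 8.58 and 7.81 CPM against 10.0, 6.01 and 6.97 CPM (-0.04 ± 0.17, adjusted p = 0.944). Bcl2l1, which encodes the survival protein BCL-XL, did not pass with all libraries either (-0.23 ± 0.09, adjusted p = 0.179). Bcl2l1 was called lower without Hb replicate 2 (adjusted p = 0.0464).

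Ferroptosis is a death by iron-dependent lipid peroxidation, held back by the peroxidase GPX4. None of the 16 tested genes of its lipid arm was called in edgeR, with or without Hb replicate 2. As only 3.65% of all tested genes were called, 0 in so short a list says little about these genes. Gpx4 was at 140, 139 and 143 CPM in control and 143, 168 and 131 CPM in Hb, with Hb replicate 2 alone above the rest (0.06 ± 0.08, adjusted p = 0.748). Acsl4, which loads membranes with oxidisable fatty acids, had a log2 fold change of -0.08 ± 0.06 (adjusted p = 0.568). The metallothionein Mt1, a binder of zinc and other metals, was not called with all libraries (-0.26 ± 0.09, adjusted p = 0.101), and was called without Hb replicate 2 (-0.38 ± 0.07, adjusted p = 0.000356).

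Chaperones of the HSP110 family rose modestly. Hspa4l went from 231, 248 and 244 CPM to 352, 320 and 354 CPM (0.50 ± 0.06, adjusted p = 1.4e-05), and Hsph1 from 331, 342 and 341 CPM to 428, 447 and 435 CPM (0.37 ± 0.06, adjusted p = 0.000481). Neither gene showed any overlap of the groups. Of 45 tested heat shock and DNAJ genes 5 rose, the others being Hsf2, Hspa12a and Hspa1b, and 0 fell, with a median of 0.07. The number was 3 without control replicate 1 or control replicate 3, and 4 without Hb replicate 2. The median without Hb replicate 2 was 0.015. Of 52 tested lysosomal genes 8 rose and 0 fell, with a median of 0.09. That count fell to 4 without control replicate 1 and 2 without control replicate 2, and was 9 without Hb replicate 2, where 1 fell. Gpnmb, a lysosome-associated glycoprotein, was called in all alternatives (0.35 ± 0.06, adjusted p = 0.000876). None of 38 integrated stress response genes was called, which is near the 3.65% called among all tested genes. The factor Ddit3 (CHOP) of this response had a log2 fold change of 0.16 ± 0.10 (adjusted p = 0.442). Without Hb replicate 2, 1 of the 38 genes was called higher and 3 lower, and without Hb replicate 3, 1 lower.

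Genes of the extracellular matrix formed the other main group, and most of those called were lower in Hb. Thbs1, thrombospondin 1, a matricellular protein that binds cells and growth factors (chr2:118111876-118127133, plus strand), had the largest relative fall among genes above 100 CPM in control. It was at 290, 229 and 197 CPM in control and 77.3, 71.3 and 71.7 CPM in Hb. The controls were widely spread and the Hb libraries tight, with a gap between them (-1.70 ± 0.11, adjusted p = 3.73e-08). Its exons overlap those of Gm29233 on the opposite strand. Fstl1, a secreted glycoprotein that binds BMPs (chr16:37776873-37836514, plus strand), went from 98.8, 90.6 and 87.5 CPM to 41.4, 43.7 and 46.4 CPM (-1.08 ± 0.08, adjusted p = 4.77e-09). The periostin gene Postn fell by a log2 of 0.97 ± 0.16 (adjusted p = 0.000399), and the fibulin gene Fbln2 by 0.57 ± 0.07 (adjusted p = 7.43e-06). Of 34 tested matricellular and fibre glycoproteins 15 fell and 0 rose, against 1.77% lower among all genes, with a median of -0.34. Without Hb replicate 2, 15 fell and 1 rose. A called fall in every one of the 14 alternatives was seen for 10 of the 15.

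Proteoglycans followed. Bgn, biglycan, a small leucine-rich proteoglycan of collagen fibres, lies on the X chromosome at 73483602-73495933 on the plus strand. It went from 1211, 1137 and 1129 CPM to 686, 650 and 636 CPM, with the groups far apart (-0.82 ± 0.06, adjusted p = 8.86e-09). Prelp, of the same leucine-rich family, fell from 17.3, 15.5 and 13 CPM to 6.36, 3.69 and 5.86 CPM (-1.53 ± 0.21, adjusted p = 6.07e-05). Ogn (osteoglycin), Sdc4 (a cell surface heparan sulfate proteoglycan) and Vcan (versican) fell by a log2 of 0.68 ± 0.12, 0.54 ± 0.08 and 0.44 ± 0.08 (adjusted p = 0.00109, 9.72e-05 and 0.00234). Gpc1, the heparan sulfate proteoglycan glypican 1, went the other way, from 172, 180 and 204 CPM to 318, 272 and 278 CPM (0.64 ± 0.07, adjusted p = 3.34e-06), though its exons overlap Ankmy1 on the opposite strand. Of 19 tested proteoglycans 6 fell and 1 rose, with a median of -0.17, and 7 and 1 did so without Hb replicate 2.

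Several collagen chains fell, by less than Thbs1 or Bgn, and 14 of the 26 tested were not called. Col1a1, a chain of fibrillar collagen I, was at 3629, 3401 and 3842 CPM in control and 2882, 2366 and 2546 CPM in Hb, without overlap (-0.48 ± 0.07, adjusted p = 0.000262). Its partner Col1a2 went from 9284, 8854 and 9156 CPM to 7807, 6961 and 7376 CPM (-0.30 ± 0.06, adjusted p = 0.00667), a call that ended without control replicate 3 (0.0541). Col5a2, Col8a1 and Col4a6 were lower by log2 fold changes between -0.40 and -0.32, and were called in all 14 alternatives. The scarce chains Col7a1, which forms anchoring fibrils, and Col9a3 rose, the former from 7.41, 7.51 and 7.38 CPM to 10.9, 13.1 and 10.6 CPM (0.64 ± 0.13, adjusted p = 0.00544). Of 26 tested chains 9 fell and 3 rose, with a median of -0.20 (9 and 4, with a median of -0.13, without Hb replicate 2).

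Some of the enzymes that cross-link and cut the matrix fell, and most of those tested were not called. Lox, the lysyl oxidase that cross-links collagen and elastin, fell from 3001, 2945 and 3074 CPM to 2136, 2084 and 2376 CPM (-0.45 ± 0.08, adjusted p = 0.000591). All Hb libraries were below all control libraries. Its relative Loxl3 fell by a log2 of 0.53 ± 0.09 (adjusted p = 0.00108), with exons that overlap Htra2 on the opposite strand. Of 22 tested collagen-modifying genes 4 fell and 0 rose, with a median of -0.07, and the number that fell was 2 without control replicate 1 and 5 without Hb replicate 2. Among 31 tested matrix proteases and inhibitors 6 fell and 0 rose, with a median of -0.11, and the 6 were called in every alternative. Numbers without Hb replicate 2 were 7 lower and 1 higher. The aggrecan-cleaving proteases Adamts1 and Adamts5 fell by a log2 of 0.64 ± 0.06 and 0.54 ± 0.06 (adjusted p = 8.04e-07 and 7.6e-06), and Adamts12 by 0.79 ± 0.11 (adjusted p = 8.77e-05). The urokinase gene Plau (-0.79 ± 0.15) and the metalloprotease inhibitor gene Timp3 (-0.55 ± 0.07) fell alongside, so the falls covered proteases and an inhibitor (adjusted p = 0.00212 and 1.56e-05). Timp3 overlaps Syn3 on the opposite strand.

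**Figure D3:**
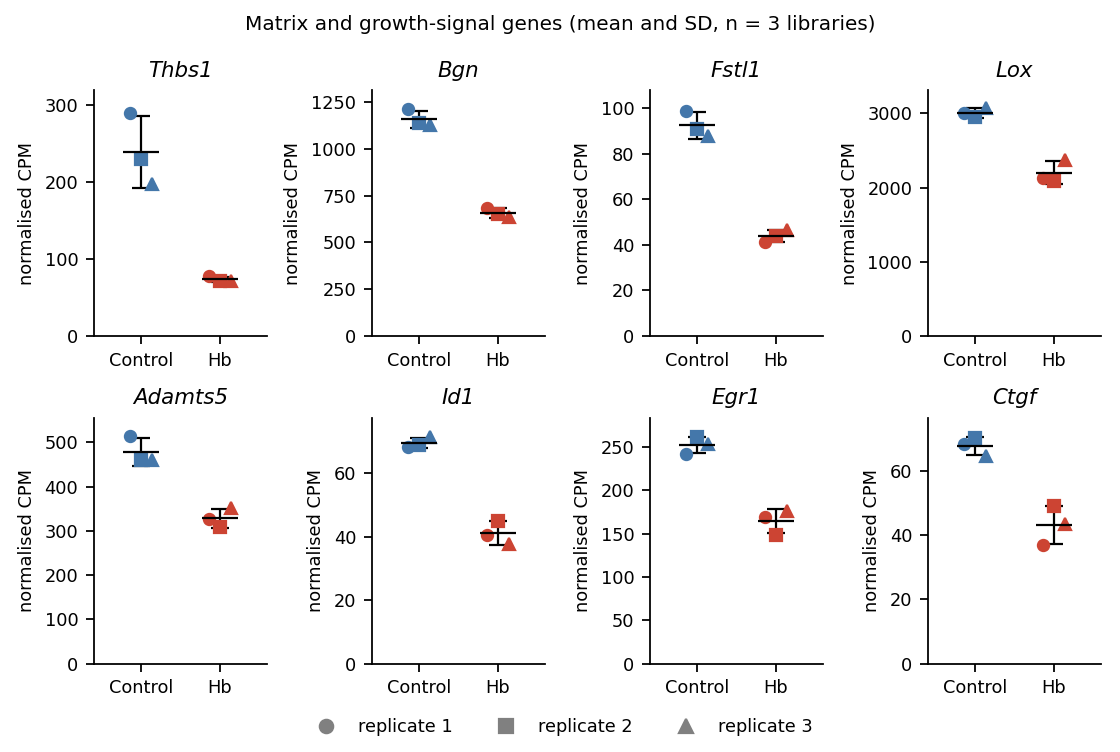
Normalised CPM (vertical axes, from 0) of 8 matrix and growth-signal genes in the 3 control (blue) and 3 Hb (red) libraries, with the mean and the SD over 3 libraries. All Hb libraries lie below all control libraries in each panel, and the gap is widest in relative terms for Thbs1.

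Integrins, the cell surface receptors of the matrix, did not share a direction. Itgb7, the beta-7 subunit best known from lymphocytes (chr15:102215995-102231944, minus strand), rose from 10.7, 12.9 and 11 CPM to 27.9, 28.5 and 21.5 CPM (1.17 ± 0.14, adjusted p = 4.86e-06). Itgb5, a vitronectin receptor subunit, fell from 68.3, 60.4 and 71.1 CPM to 39.6, 39.7 and 43.6 CPM (-0.70 ± 0.08, adjusted p = 2.68e-06). Among 19 tested subunits Itgb7 and Itgb8 rose and Itgb5 fell. Itgb8 was not called without Hb replicate 3, control replicate 1 or control replicate 2, nor without Hb replicate 2 (adjusted p = 0.0651), where Itga3 was called higher in its place. Itga11, a collagen receptor subunit, stayed between 1.27 and 1.93 CPM in all 6 libraries and was not called (adjusted p = 0.788).

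Several targets of BMP, ERK and YAP signalling were lower. The ID genes are direct BMP targets whose products block differentiation factors. Id1 (chr2:152736251-152737410, plus strand) went from 68.3, 68.9 and 71.3 CPM to 40.6, 45.0 and 37.5 CPM (-0.76 ± 0.08, adjusted p = 2.75e-06), and Id3 from 141, 142 and 152 CPM to 78.8, 99.6 and 79.5 CPM (-0.75 ± 0.08, adjusted p = 2.28e-06). Id2 fell by a log2 of 0.85 ± 0.10 (adjusted p = 3.92e-06). No library of either group crossed into the other for these 3 genes. Tgfbr2, the type II TGF-beta receptor, rose from 138, 138 and 136 CPM to 214, 194 and 200 CPM (0.57 ± 0.06, adjusted p = 3.79e-06). Of 34 tested genes of the TGF-beta and BMP pathway 5 fell and 1 rose. The number that fell was 3 without Hb replicate 1, control replicate 1 or control replicate 3, and 6 without Hb replicate 2.

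Immediate early and ERK output genes gave 9 lower and 4 higher of 46 tested, and 8 of the 9 falls were called in every alternative. The growth-factor-induced zinc finger gene Egr1 was at 242, 261 and 254 CPM in control and 169, 149 and 176 CPM in Hb (-0.62 ± 0.07, adjusted p = 1.91e-06). Its relative Egr3 fell by a log2 of 1.10 ± 0.15 (adjusted p = 2.63e-05) and Etv5, an ERK-driven ETS factor, by 0.90 ± 0.12 (adjusted p = 4.95e-05). Ccnd1, cyclin D1, went from 139, 147 and 127 CPM to 101, 97.0 and 96.6 CPM (-0.49 ± 0.07, adjusted p = 0.000105). Ptgs2, the inducible prostaglandin synthase COX-2, rose instead (0.38 ± 0.07, adjusted p = 0.00108). The number that rose was 2 without Hb replicate 1, control replicate 2 or control replicate 3. Without Hb replicate 2 it was 4, with 8 lower.

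The YAP targets Ctgf and Cyr61, secreted CCN proteins, fell by a log2 of 0.65 ± 0.09 and 0.55 ± 0.09 (adjusted p = 9.72e-05 and 0.000317). Ctgf measured 68.5, 70.1 and 64.7 CPM in control against 37.1, 49.1 and 43.6 CPM in Hb. With Crim1 and Amotl2, 4 of 23 tested YAP targets fell and 0 rose, with a median of -0.11. Only Ctgf and Cyr61 held in every alternative, and the count was 2 without any 1 of the 3 control libraries and 4 without Hb replicate 2. The median without Hb replicate 2 was -0.04. Acta2, smooth muscle actin, fell from 26.3, 19.8 and 15.5 CPM to 9.11, 10.3 and 8.31 CPM (-1.15 ± 0.16, adjusted p = 3.64e-05). It was accompanied by only Cald1 among 32 tested SRF-dependent actin genes, a count that was 1 without control replicate 2 and 5 without Hb replicate 2, where 1 gene also rose.

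Growth factors and their receptors moved both ways. Fgf7, a growth factor that mesenchymal cells secrete for epithelia, fell from 55.5, 48.9 and 52.9 CPM to 23.9, 26.4 and 30.0 CPM (-0.97 ± 0.10, adjusted p = 1.48e-06). The heparin-binding factor gene Ptn and the macrophage colony stimulating factor gene Csf1 fell by a log2 of 0.51 ± 0.06 and 0.49 ± 0.07 (adjusted p = 1.16e-05 and 4.12e-05). The receptor gene Pdgfra, also a mesenchymal marker, fell by 0.47 ± 0.08 (adjusted p = 0.0012). Vegfb rose from 21.3, 24.7 and 24.9 CPM to 37.9, 39.8 and 33.8 CPM (0.66 ± 0.11, adjusted p = 0.000975). Of 40 tested ligands and receptors 8 fell and 3 rose. The number that fell was 5 without control replicate 1 or control replicate 2, and the number that rose was 1 without any 1 of the control libraries or Hb replicate 3. Counts without Hb replicate 2 were again 8 and 3.

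Outside these groups, the largest relative rises at 5 CPM or more included Prl2c2, a prolactin-family hormone gene called proliferin, from 4.70, 4.32 and 5.87 CPM to 16.2, 21.4 and 16.5 CPM (1.87 ± 0.16, adjusted p = 7.4e-08). It has a near-identical neighbour in Prl2c3, which was called in the same direction, so counts may be split between them. Atg9b, a membrane protein of autophagosome formation, rose by 1.62 ± 0.20 (adjusted p = 1.16e-05) and overlaps Nos3 on the opposite strand. Chrnb1, a subunit of the muscle acetylcholine receptor, and Slc8b1, the mitochondrial sodium and calcium exchanger, rose by 0.94 ± 0.10 and 0.82 ± 0.11 (adjusted p = 2.14e-06 and 4.95e-05). Among the falls, Ifi202b, a DNA-sensing interferon-inducible gene with near-identical relatives, went from 9.27, 13.1 and 11.9 CPM to 3.39, 4.31 and 3.78 CPM (-1.57 ± 0.16, adjusted p = 8.92e-07). Ptx3, a soluble pattern-recognition protein, fell from 251, 228 and 316 CPM to 131, 161 and 140 CPM (-0.88 ± 0.10, adjusted p = 1.94e-05). The glutamate transporter Slc1a3 fell from 227, 199 and 207 CPM to 113, 119 and 137 CPM (-0.78 ± 0.07, adjusted p = 2.23e-07). Of 43 tested interferon-stimulated genes 4 were lower (Ifi202b, Ifi203, Ifi204 and Tgtp2) and 1 higher (Xaf1), against 1.77% lower and 1.88% higher among all genes. The number lower was 2 without control replicate 3, and the 1 higher was called neither without any 1 of the control libraries nor without Hb replicate 1 or Hb replicate 3. Without Hb replicate 2, 3 were higher and 4 lower.

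Several other gene groups showed few calls in number. Among all tested genes 1.88% were higher and 1.77% lower, so in such short lists 1 or 2 calls can exceed these shares. A count of 0 in them is not clearly below these shares. In the edgeR fit of all libraries 0 of 19 circadian, 0 of 14 MHC class I and 0 of 25 Wnt pathway genes were called, and without Hb replicate 2 each of the 3 lists had 1 gene lower. Of 43 mitotic genes only Kif18a, which encodes a kinesin, was lower, and 2 were lower without Hb replicate 2. Kif18a was not called without Hb replicate 1, Hb replicate 3, control replicate 2 or control replicate 3. Of 12 tested NRF2 regulators the partners Sqstm1 and Mafg rose, of which 1 was called without Hb replicate 1, control replicate 1 or control replicate 2 and 0 without control replicate 3, while both were counted without Hb replicate 2. Among 26 ABC transporters Abca8b rose and Abcg2 fell, with 5 higher and 1 lower without Hb replicate 2. Among 45 autophagy genes Atg9b and Sqstm1 rose and Rb1cc1 fell. Only 1 rose without control replicate 1 or control replicate 3, and 0 fell without Hb replicate 1, control replicate 2 or control replicate 3. The counts without Hb replicate 2 were 3 and 1. Of 37 NF-kB, chemokine and cytokine genes 2 rose (Ptgs2 and Il1rl1) and 2 fell (Csf1 and Il1r1), with 2 higher and 4 lower without Hb replicate 2 and 1 higher without control replicate 2 or control replicate 3.

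Lipid and zinc genes also had few calls in number, beside 1.88% higher and 1.77% lower among all tested genes. Of 36 fatty acid and lipid droplet genes Plin2 and Pnpla2 rose, of which 1 was called without Hb replicate 1 or Hb replicate 2 and 0 without any 1 of the control libraries. Of 31 cholesterol genes only Mylip fell, and the count was 0 without control replicate 2, 2 without Hb replicate 3 and 4 without Hb replicate 2. Among 20 metallothionein and zinc transporter genes only Slc39a7 fell. That count was 0 without Hb replicate 1, control replicate 2 or control replicate 3, and 2 without control replicate 1 or Hb replicate 2, and without the latter 1 gene also rose. Across lists, the median shift of each Hb library from the control mean shows where Hb replicate 2 differed from the other 2.

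**Figure D4:**
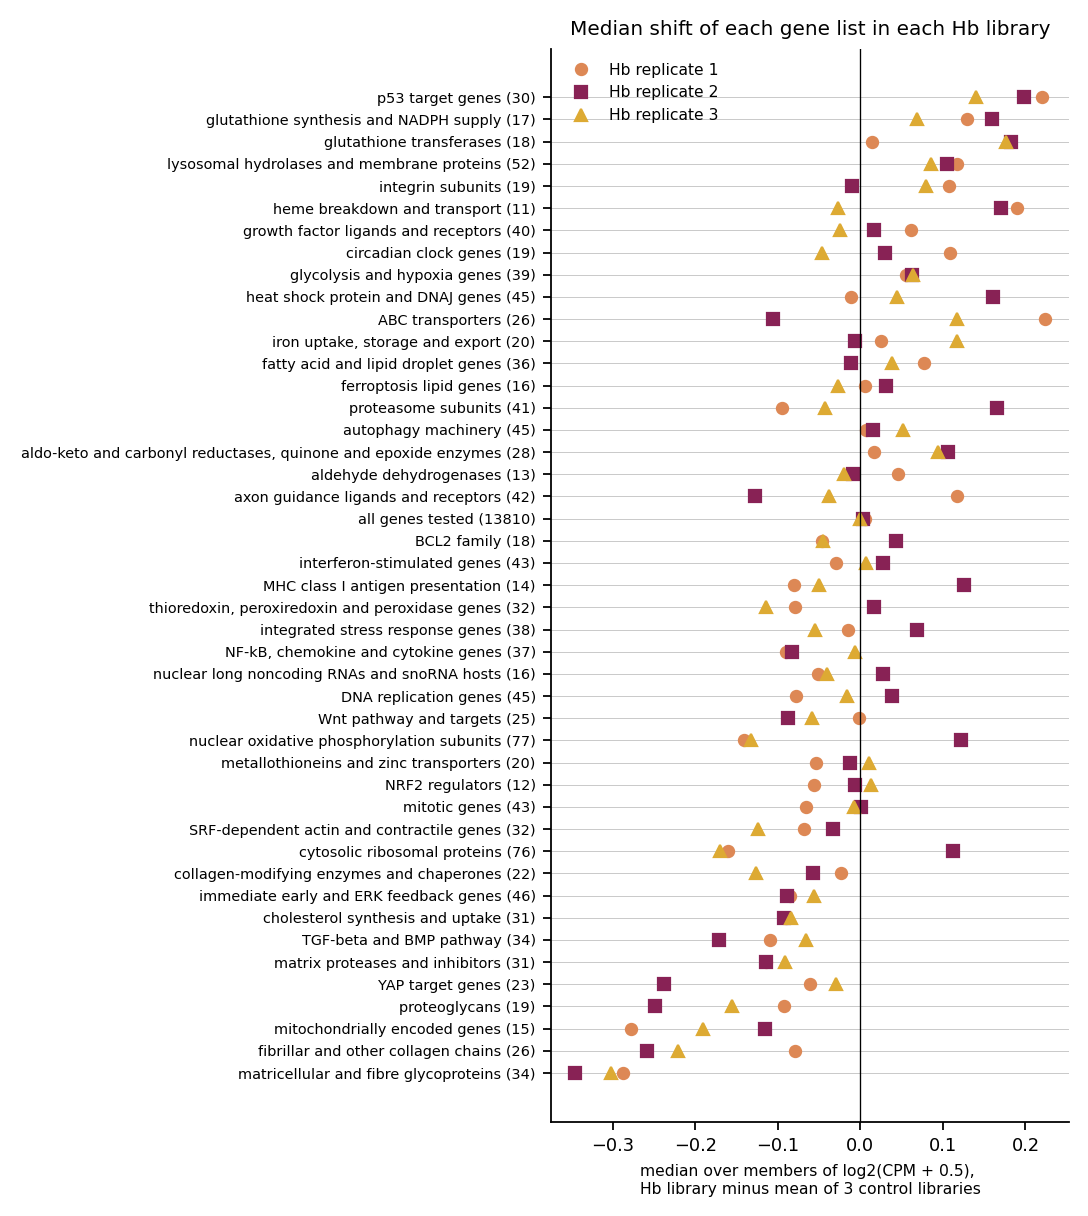
Median over the tested members of each gene list of the difference between 1 Hb library and the mean of the 3 control libraries, on the scale of log2(CPM + 0.5). The number of members is in brackets, and the prolactin family, with 2 tested genes, is left out. Matricellular and p53 target genes keep their sign in the 3 Hb libraries, and for cytosolic ribosomal proteins replicates 1 and 3 lie at -0.16 and -0.17 with replicate 2 at 0.11.

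The difference of Hb replicate 2 from its group followed transcript length. Across 13647 genes (98.8% of those tested) with a GENCODE M21 length, Spearman's rho between the length of the longest transcript and the log2 difference of Hb replicate 2 from the mean of Hb replicates 1 and 3 was -0.42. For the 3 control libraries, treated alike, it ran from -0.10 to 0.09. For Hb replicates 1 and 3 it was 0.21 and 0.28, and these 3 differences share libraries, so they are not independent, nor are genes independent replicates. Genes with transcripts under 1 kb had a median difference of 0.18 in Hb replicate 2, and those over 8 kb a median of -0.28. For GC content the rho was 0.06 in Hb replicate 2, 0.28 in Hb replicate 1 and -0.37 in Hb replicate 3.

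**Figure D5:**
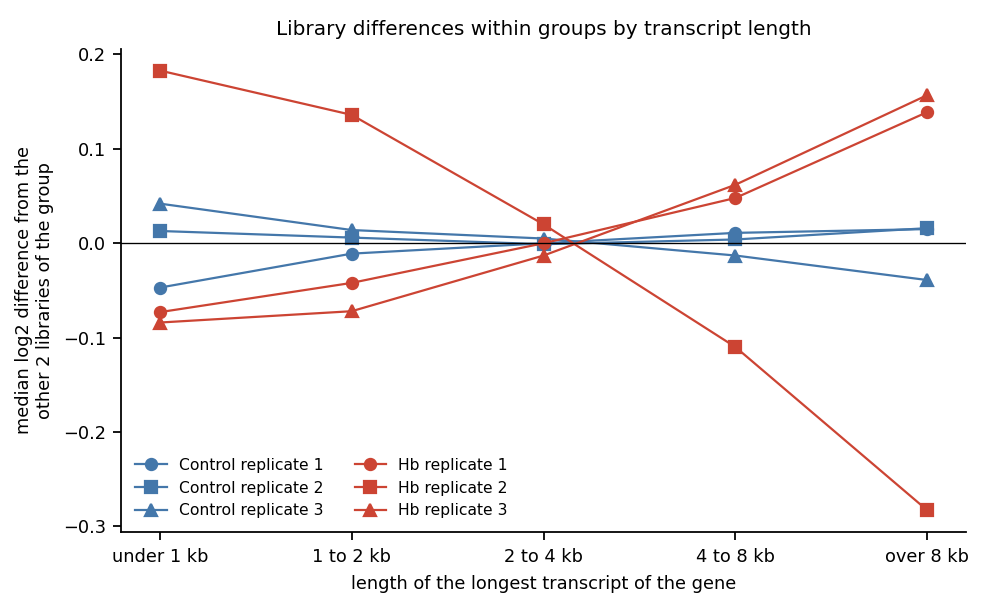
Median log2 difference of each library from the mean of the other 2 libraries of its group (vertical axis) in 5 bins of transcript length (horizontal axis), for control (blue) and Hb (red). Hb replicate 2 falls from 0.18 to -0.28 across the bins, and the control libraries stay between -0.05 and 0.04.

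Families of short genes differed between the Hb libraries in the same way. The 76 tested cytosolic ribosomal protein genes, with a median transcript length of 941 bases, had median shifts from the control mean of -0.16, 0.11 and -0.17 in Hb replicates 1, 2 and 3. None was called with all libraries in edgeR, and 22 were called lower without Hb replicate 2. The 77 nuclear genes of oxidative phosphorylation, with a median length of 918 bases, shifted by -0.14, 0.12 and -0.13. With all libraries 1 was called higher (Atp5l) and 0 lower, and without Hb replicate 2, 11 were lower. Atp5l lost its call without any 1 of the control libraries, and without Hb replicate 1 or Hb replicate 3. It was also not called in DESeq2 or with the 6 libraries alone. Proteasome subunits shifted by -0.10, 0.17 and -0.04, with 0 lower with all libraries and 3 without Hb replicate 2. Mitochondrially encoded genes had medians below 0 in all 3 Hb libraries, at -0.28, -0.12 and -0.19. Their called falls numbered 3 of 15 with all libraries (mt-Rnr2, mt-Nd5 and mt-Nd1) and 8 without Hb replicate 2. The ribosomal RNA mt-Rnr2 went from 1708, 1978 and 1976 CPM to 1264, 1488 and 1480 CPM (-0.42 ± 0.08, adjusted p = 0.00196). Mitochondrial genes held 4.73% to 5.20% of counts in control and 4.14% to 4.57% in Hb.

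Calls made only without Hb replicate 2 were of the same kind at both ends of the length scale. Among tested genes with transcripts over 8 kb, 1.65% were called higher with all libraries and 11% without Hb replicate 2. Among those under 1 kb, 1.03% were called lower with all libraries and 7.5% without it. Tenm4, a long teneurin gene, measured 102, 109 and 96.4 CPM in control and 156, 98.4 and 143 CPM in Hb, so Hb replicate 2 sat among the controls. Its log2 fold change was 0.37 ± 0.13 with all libraries (adjusted p = 0.148) and 0.55 without Hb replicate 2 (adjusted p = 3.04e-07). Myl6, a myosin light chain gene, and Rps26, of the small ribosomal subunit, showed the mirror image, with Rps26 at 771, 816 and 805 CPM in control and 636, 783 and 603 CPM in Hb. The mean of the 3 Hb libraries against control had a rho of 0.02 with length, and that of replicates 1 and 3 alone had 0.19. The part of transcript length in the calls was not tested. Each heme, iron, glutathione, thioredoxin, collagen, proteoglycan and matricellular gene named above as risen or fallen was also called without Hb replicate 2.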

How the data were processed

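Poly(A)-selected RNA of 9 libraries was sequenced by the authors. Reads were handled with bcl2fastq 2.19.1.403, HISAT2 2.1.0 and HTSeq 0.10.0 on GRCm38, per the submitters' processing notes. No source used here gives the annotation release, the strand setting or the treatment of reads with several matches. The deposited table holds raw counts per gene symbol for 54232 entries, not normalised by the authors, and 98 exact repeats were removed. Columns beginning in N carry no sample number and were taken as a group, the cells given oxyhemoglobin with NTR1. The authors' deposited comparison table was not used here.

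Genes were kept by filterByExpr (minimum count 10) over all 9 libraries, which left 13810, and scaled by TMM over the same libraries. A single quasi-likelihood fit of all 9 libraries with a term for group was made in edgeR 4.0.16 (R 4.3.3, robust dispersion, biological coefficient of variation 6.90%), and Hb was tested against control, two-sided, with Benjamini-Hochberg adjustment at 0.05. The SE is the absolute log2 fold change over the square root of F. Longest transcripts and positions came from GENCODE M21, promoters from RefSeq. Lists held 45 gene groups and 9 marker groups. Members and lists were chosen with earlier results of these data known. Named genes were the 15 largest rises and falls at 5 CPM or more with no overlap, the 10 largest changes in CPM, up to 6 called members of each list, 10 genes called only without Hb replicate 2, and a fixed set for heme, apoptosis and the integrin of the study. Nfib was named after its value was seen. Some genes that the rule picked are left out of the text.

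Alternatives were DESeq2 size factors, library totals, no filter, at least 1 CPM in 3 libraries, DESeq2 1.42.0, the 6 libraries alone, a replicate block, removal of mitochondrial genes, and each library left out in turn. On simulated counts for this comparison with 13241 genes fitted, 50%, 86%, 96% and 98% of genes changed 1.25, 1.5, 2 and 4-fold were called, and 5.17% of calls were unchanged genes. The simulated libraries were drawn independently from the trended dispersion, with the NTR1 group at control levels. None of them stood apart as Hb replicate 2 did, so these shares may not carry over to the real libraries.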

Additional observations from a re-analysis of the deposited data

How the results depend on the processing

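The number of called genes was 504, and 510 with DESeq2 size factors, 573 with library totals, 616 without a filter, 499 with the filter on CPM, 540 with DESeq2, 371 with the 6 libraries alone and 501 without mitochondrial genes. Leaving out 1 library gave 285 to 1125 calls, 127 to 533 of them higher and 157 to 592 lower. The replicate block gave 674 calls, 331 higher and 343 lower. Same-numbered libraries deviated together with correlations of 0.116, -0.022 and -0.045, so the numbers were not taken to pair them. Of the values of named genes under the alternatives, 2217 kept their direction and call, 186 lost the call, 28 gained it and 10 changed sign, all in genes without a call. With library totals Bcl2 moved to 0.000. With 1 library left out, Bcl2 ran from -0.282 to 0.112, Mt2 from -0.264 to 0.528, Gpx4 from -0.044 to 0.142 and Slc40a1 from -3.12 to 1.89. The cause was not tested. Genes under about 1 CPM rest on few counts.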

Other observations

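Genes of axon guidance, whose ligands and receptors also act outside the nervous system, were among those called in both directions. Sema5a, a transmembrane semaphorin, measured 53.8, 48.6 and 51.3 CPM in the control libraries and 96.3, 73.1 and 93.9 CPM in the Hb libraries. All Hb libraries were higher, with Hb replicate 2 the lowest of them (log2 fold change 0.77 ± 0.09, edgeR adjusted p = 7.6e-06). The secreted semaphorin Sema3c rose by 0.56 ± 0.08 (edgeR adjusted p = 4.85e-05), while the semaphorin co-receptor Nrp1 went from 77.7, 76.8 and 82.6 CPM to 63.3, 60.2 and 60.1 CPM (-0.37 ± 0.07, edgeR adjusted p = 0.00187). The netrin receptor gene Unc5b was lower by a log2 of -0.54 ± 0.10 (edgeR adjusted p = 0.00189). Of 42 tested genes of this list 2 rose and 4 fell, the others being Slit2 and Ephb6, with a median of 0.00. The number that fell was 2 without control replicate 2, and the counts were 3 and 4 without Hb replicate 2.

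Hk1, which encodes a hexokinase that phosphorylates glucose, rose from 186, 190 and 199 CPM to 252, 227 and 234 CPM (0.31 ± 0.06, edgeR adjusted p = 0.0044). With Gbe1 and Aldoa, 3 of 39 tested glycolysis and hypoxia genes rose and 0 fell. Only 1 rose without control replicate 1 or control replicate 3, and without Hb replicate 2 the counts were 3 and 1. The long noncoding RNA Neat1, the scaffold of nuclear paraspeckles, was at 492, 493 and 417 CPM in control and 669, 575 and 602 CPM in Hb (0.40 ± 0.08, edgeR adjusted p = 0.00241). It was the only gene called among 16 tested nuclear noncoding and snoRNA host genes. The interleukin 1 receptor gene Il1r1 fell from 29.4, 27.3 and 27.4 CPM to 17.3, 16.9 and 21.1 CPM (-0.61 ± 0.10, edgeR adjusted p = 0.000806), with no overlap of the groups.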
